A study of Homo sapiens with 6 samples.

Results

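The genes described here are 55 members of the WNT pathway: 19 WNT ligands, 10 frizzled receptors, 2 co-receptors, 9 secreted antagonists, 6 feedback inhibitors, 5 signal transducers and 4 TCF/LEF transcription factors. They were taken by symbol, under a rule set with earlier results of these data known, from 61695 loci in the authors' deposited count tables. There they fell in 56 loci because WNT5A had 2, the smaller of them too low to be tested and not used below. The cells were EndoC-βH1, an immortalized human beta cell line, so all 6 libraries of messenger RNA share 1 genetic background. The 3 control and 3 cytokine libraries came from cells seeded at 75000 per well in medium with 11 mM glucose and left to adhere for 24 h. The cytokine group then received IL-1β at 5, TNF-α at 10, IFN-γ at 50 and IL-17 at 100 ng/ml, all together, and was collected after 24 h. Labels place the controls before exposure, but the extraction step has them kept cytokine-free for an equal 24 h. Under the first reading, time in culture and cytokine exposure cannot be told apart. Nothing states that replicate libraries came from separate cultures, so the spread behind each p-value may be technical.

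WNT proteins are secreted, lipid-modified ligands that bind frizzled receptors together with the co-receptors LRP5 or LRP6. In the canonical branch this halts the destruction complex built on AXIN1, lets β-catenin (CTNNB1) accumulate, and turns on genes bound by TCF/LEF factors, among them the pathway's own inhibitors AXIN2, NKD1, RNF43 and ZNRF3. Other ligands, WNT5A and WNT5B among them, are best known for signalling without β-catenin, and in the islet the pathway is studied for beta cell proliferation, maturation and the type 2 diabetes gene TCF7L2.

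The ligand whose locus differed most among those with reads in both groups was WNT10A, on the plus strand at chr2:218880852-218899581 (hg38). The bases just before the start are shown for it, for FZD5, a receptor that rose, and for WNT9A, a ligand that fell, because these genes moved in different directions. The sequences were taken from RefSeq (GRCh38.p14), and each is the 250 bases before the annotated start, outside the transcript, written 5′ to 3′ on the gene's strand. Capitals mark matches to the κB motif, the site family bound by NF-κB, a transcription factor activated by IL-1β and TNF-α. The WNT10A stretch is chr2:218880602-218880851 on the plus strand, the FZD5 stretch is chr2:207769907-207770156 on the minus strand, and the WNT9A stretch is chr1:227947933-227948182 on the minus strand.
WNT10A: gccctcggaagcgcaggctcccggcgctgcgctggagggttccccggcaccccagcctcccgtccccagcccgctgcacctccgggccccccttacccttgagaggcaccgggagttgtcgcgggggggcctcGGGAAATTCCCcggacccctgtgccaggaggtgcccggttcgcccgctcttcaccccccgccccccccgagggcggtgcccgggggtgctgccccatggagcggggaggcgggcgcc
FZD5: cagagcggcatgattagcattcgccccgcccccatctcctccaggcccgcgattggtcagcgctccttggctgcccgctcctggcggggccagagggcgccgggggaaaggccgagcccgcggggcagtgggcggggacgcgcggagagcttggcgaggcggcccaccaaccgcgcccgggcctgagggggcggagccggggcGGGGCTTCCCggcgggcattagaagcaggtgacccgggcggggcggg
WNT9A: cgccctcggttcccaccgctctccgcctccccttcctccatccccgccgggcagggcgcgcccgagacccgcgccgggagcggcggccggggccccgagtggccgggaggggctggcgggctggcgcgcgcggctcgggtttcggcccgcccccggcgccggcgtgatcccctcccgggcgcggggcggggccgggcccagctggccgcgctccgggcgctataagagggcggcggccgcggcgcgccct

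The WNT10A stretch held 1 κB site, 117 to 107 bases before the start, made of overlapping matches on the 2 strands that together read GGGAAATTCCC. The FZD5 stretch held 1 site, GGGGCTTCCC, 47 to 38 bases before its start, and the WNT9A stretch held none. Windows of 300 bases, reaching 50 bases past the start, were present for 39 of the 55 genes, 46 windows in all. On either strand the κB motif matched 12 of these 39 genes, against 13.3% of 27305 genes and 11.3% of 35116 windows in the whole RefSeq table. The motif is rich in G and C: it matched 16.7% of windows with at least 60% GC, where the median over all windows was 58.7% GC and the WNT10A, FZD5 and WNT9A stretches had 77.6%, 76.8% and 84.4%. By outcome in the count table, 4 of 7 genes that rose had a match (WNT10A, WNT4, FZD5 and WNT2B), as did 1 of 9 that fell (TCF7), 5 of 14 not past the test and 2 of 9 not tested. The single 10-base string GGGAAATTCC, looked up after the WNT10A match had been seen, stood in 57 windows of the table (0.162%) and among these genes in the WNT10A window alone. The interferon response element core (3.57% of windows) and the TCF/LEF motif CTTTGAT (2.62% of windows), both read on either strand, matched none of the 39. A match is a description of letters in this window and says nothing of whether a factor was bound.

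Of the 55 genes, 45 had an adjusted p in the authors' deposited count table, 9 had reads but too few for one, and 1, WNT2, had no read. At an adjusted p under 0.05 in their DESeq test, 9 of these 45 rose, 14 fell and 22 did not pass. Over all 30206 loci tested in the same way, 37.7% passed, 18.0% higher and 19.7% lower. Call rates rise with abundance: among the 28 genes with a mean of at least 50 normalized counts 21 passed, against 67.6% of all such loci (29.9% higher, 37.7% lower), so the share of genes called was not far from the background. The median log2 fold change of the 45 tested genes was -0.14, against 0.05 over all tested loci, and for the 28 more abundant genes it was -0.17 against -0.04. A change of at least 2-fold past the test was found for 8 genes, 3 higher and 5 lower, where 9.8% of all tested loci in the deposited table met that rule. The authors' second test, in their deposited Cuffdiff table of FPKM values (fragments scaled to transcript length and library depth), tested 30 of the genes and called 5 higher and 6 lower at q under 0.05, against 35.7% of all loci it tested (17.8% higher, 17.9% lower). All 11 had the same direction in both tables, and 12 genes passed in the count table only.

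The tables hold group summaries, so a value for each library cannot be shown; whether libraries of the 2 groups overlap cannot be read from them. Group means below are normalized counts derived from the deposited overall mean and the fold change, each fold change is cytokine over control on the log2 scale with the standard error (SE) of the authors' fit, and each FPKM value is the authors' group value. In bulk RNA, fewer cells of a type and less RNA per cell cannot be told apart. Markers of beta cells checked the label: in the authors' deposited FPKM table, 10 of the 11 marker loci holding a single symbol summed to 1445 FPKM in controls and 1159 FPKM after cytokines, and PDX1 stood at 145 and 146 FPKM. The other single-symbol marker, CHGA, a protein of secretory granules, is not in this sum because Cuffdiff flagged its locus as holding too much data and listed it at 0 FPKM. It rose in the authors' deposited count table (log2 fold change 1.12, SE 0.02), with a mean of 216419 normalized counts. In the deposited count table, 4 of 16 beta cell markers rose and 9 fell. Those that fell include MAFA, at 33.0 FPKM in controls and 10.6 FPKM after cytokines, and SLC30A8, at 273 and 178 FPKM. The ductal marker KRT19 stood at 49.4 and 62.0 FPKM. The fibroblast marker COL1A1 rose in the authors' deposited count table (log2 fold change 1.39, SE 0.06), and in their FPKM table it went from 3.21 to 7.52 FPKM. The single-symbol fibroblast or stellate list summed to 3.66 and 7.94 FPKM, the endothelial list to 0.00487 and 0.0313 FPKM, the leukocyte list to 0.0582 and 0.158 FPKM, and 3 of the 4 acinar markers were listed at 0 in both groups. The fourth, CPA1, stood at 33.7 and 25.5 FPKM and fell in the authors' deposited count table (log2 fold change -0.42, SE 0.06, adjusted p = 3.25e-13 in DESeq). The part of these markers in the WNT gene results was not tested. The loci of these genes held 0.175% of the depth, which averaged 40881975 normalized counts a library.

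**Figure D1:**
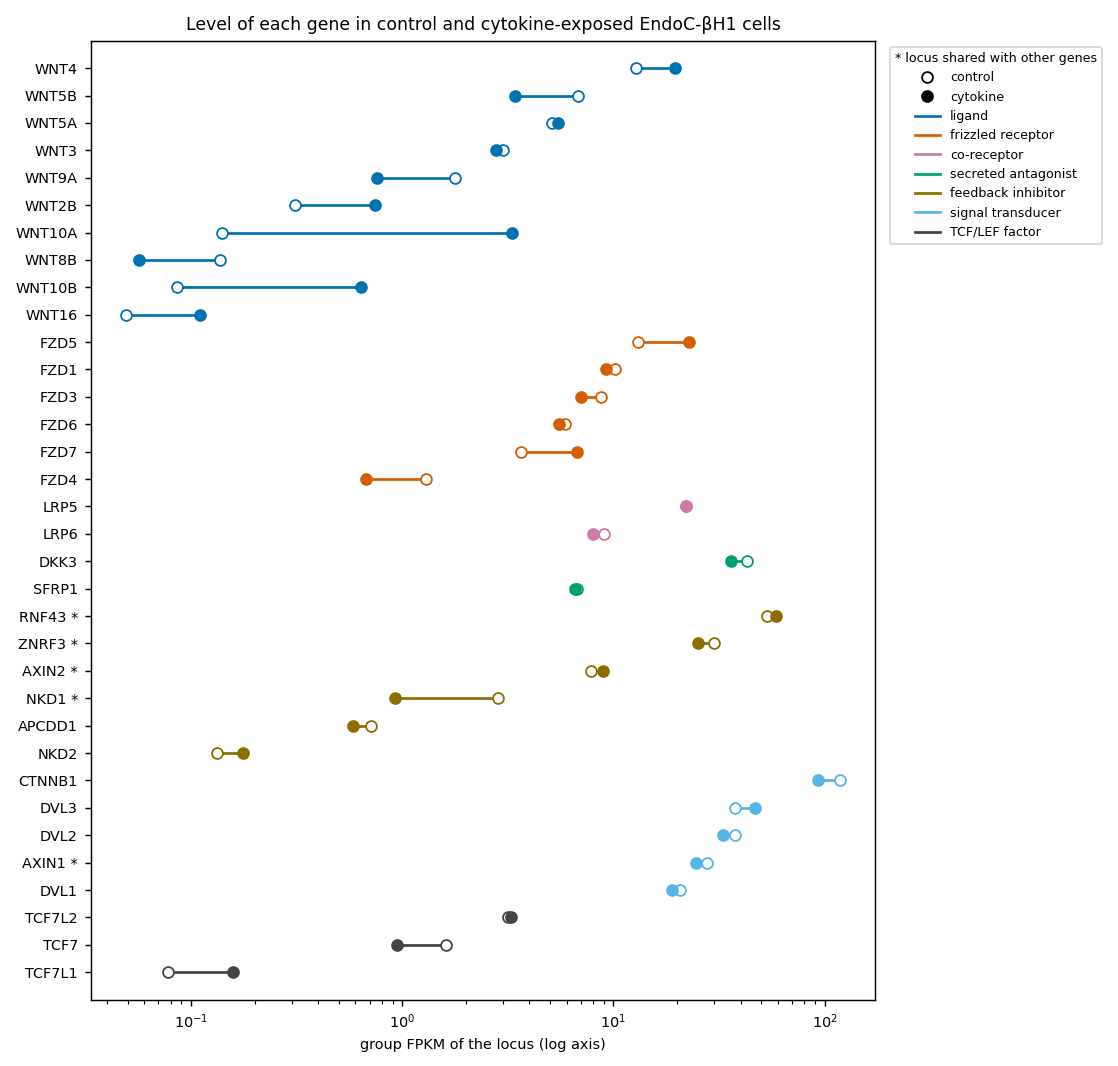
Level of each WNT pathway gene listed at 0.1 FPKM or more in at least 1 group, as the authors' group FPKM of its locus (x axis, log scale), with open points for control, filled points for cytokine and colours for roles; an asterisk marks a locus shared with other genes. WNT10A runs from 0.140 to 3.32 FPKM, while the 5 signal transducers lie above 10 FPKM with short lines between the groups.

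Among the ligands, 5 of 15 tested rose, 2 fell and 8 did not pass in the deposited count table. Over all tested loci 37.7% passed there, 18.0% higher and 19.7% lower. WNT10A, a ligand of the canonical branch known from hair follicle and tooth development, went from 14.7 to 354 normalized counts, 24.1-fold, in the values of the authors' deposited table (log2 fold change 4.59, SE 0.24, adjusted p = 1.67e-77 in DESeq). Its level in the authors' deposited FPKM table went from 0.140 to 3.32 FPKM (Cuffdiff q = 0.000232, the smallest q in that table). WNT10B, its closest relative and a canonical ligand, stood at 5.70 normalized counts in controls and 53.0 after cytokines, 9.29-fold, in the authors' deposited table (log2 fold change 3.22, SE 0.45, adjusted p = 4.83e-12 in DESeq). WNT10B is on the minus strand at chr12:48965340-48971735, and the start of WNT1, at chr12:48978322-48982620 on the plus strand, is 6586 bases beyond its 5′ end. WNT1, the founding member of the family, also passed in the authors' deposited count table (adjusted p = 8.83e-04 in DESeq) on a mean of only 3.70 normalized counts. Its deposited level was listed at 0 FPKM in controls and at 0.0537 FPKM after cytokines, so no fold is given, and Cuffdiff did not test it.

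The pair WNT6 and WNT10A is also adjacent, 6618 bases apart on the same strand of chromosome 2. WNT6, with a mean of 1.67 normalized counts, did not pass in the authors' deposited count table (log2 fold change 0.64, SE 1.41, adjusted p = 0.807 in DESeq), and a difference was not detectable at this depth. The other adjacent pairs were WNT3 with WNT9B, 46 bases apart with neither past the test, and WNT9A with WNT3A, 59065 bases apart with WNT3A too low to be tested.

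WNT4 was the ligand with the highest level in both groups of the authors' deposited FPKM table, at 12.8 FPKM in controls and 19.5 FPKM after cytokines. Its counts rose from 666 to 1035 in values of the authors' deposited count table (log2 fold change 0.63, SE 0.07, adjusted p = 1.21e-18 in DESeq). WNT4 is at chr1:22117313-22143969 on the minus strand and is a ligand that can act with or without β-catenin. WNT2B, a canonical ligand, rose from 65.8 to 120.1 normalized counts by the authors' deposited count table (log2 fold change 0.87, SE 0.20, adjusted p = 3.99e-05 in DESeq), but not in their deposited FPKM table (0.311 and 0.743 FPKM, q = 0.194).

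The ligands that fell were WNT9A and WNT5B. WNT9A, known from joint and limb development, went from 322 to 128 normalized counts, 2.52-fold lower, in values of the authors' deposited table (log2 fold change -1.33, SE 0.13, adjusted p = 5.12e-24 in DESeq). WNT5B went from 637 to 305 normalized counts, 2.09-fold lower (log2 fold change -1.06, SE 0.09, adjusted p = 6.40e-32), and from 6.80 to 3.42 FPKM in the authors' deposited tables. WNT5A, its closest relative, had 932 and 979.9 normalized counts by the authors' deposited table (log2 fold change 0.07, SE 0.06, adjusted p = 0.431 in DESeq). WNT3, a canonical ligand, had 474 and 429 normalized counts by the authors' deposited table (log2 fold change -0.14, SE 0.09, adjusted p = 0.220). In order of deposited FPKM, controls had WNT4, WNT5B, WNT5A, WNT3 and WNT9A above 1 FPKM, and cytokine cells had WNT4, WNT5A, WNT5B, WNT10A and WNT3. Neighbours in this order could not be tested, for want of values per library. Summed over the 19 ligands, the authors' deposited level was 30.3 FPKM in controls and 36.9 FPKM after cytokines.

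The other ligands were near the limit of what this depth can show. WNT8B had 17.2 and 7.0 normalized counts by the authors' deposited table and missed the threshold (log2 fold change -1.30, SE 0.57, adjusted p = 0.0583 in DESeq). WNT16, WNT11, WNT6, WNT7B and WNT9B had means from 1.64 to 7.26 normalized counts and did not pass, and WNT3A, WNT7A and WNT8A were not tested. In all, 27 of the 55 genes had a mean under 50 normalized counts, 17 of these were tested, and WNT10B and WNT1 were the 2 called.

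**Figure D2:**
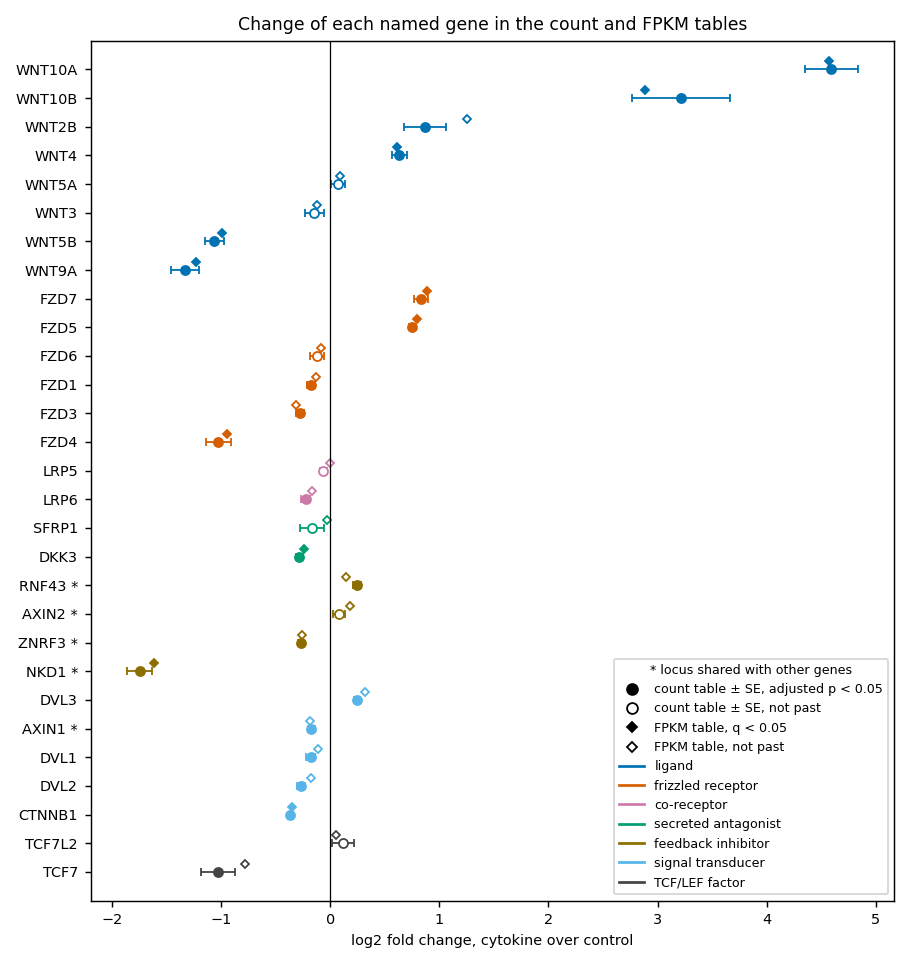
Log2 fold change, cytokine over control (x axis), of each WNT pathway gene past the test or with a mean of at least 50 normalized counts, with circles for the deposited count table (bars, SE of the authors' fit) and diamonds for the deposited FPKM table, filled where the adjusted p or q was under 0.05. WNT1 is not drawn because its control level was listed at 0 FPKM; WNT10A at 4.59 and WNT10B at 3.22 lie farthest to the right, and NKD1 at -1.75 farthest to the left.

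Of the 10 frizzled receptors, which bind WNT ligands at the cell surface, 2 rose, 3 fell and 5 did not pass in the deposited count table. With a mean of at least 50 normalized counts 5 of 6 passed, against 67.6% of all such loci. FZD5, at chr2:207762598-207769906, was the frizzled gene with the highest level in the authors' deposited FPKM table and went from 13.1 to 22.7 FPKM. Its counts went from 4098 to 6889 in the authors' deposited table, 1.68-fold higher (log2 fold change 0.75, SE 0.03, adjusted p = 3.02e-148 in DESeq). FZD7 rose from 647 to 1152 normalized counts by the authors' deposited table (log2 fold change 0.83, SE 0.06, adjusted p = 1.71e-36). Both also passed in the authors' deposited Cuffdiff table (q = 0.000232 for each).

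FZD4, which also serves as the receptor for the non-WNT ligand norrin, fell from 353 to 173 normalized counts by the authors' deposited table (log2 fold change -1.02, SE 0.12, adjusted p = 2.14e-17 in DESeq; Cuffdiff q = 0.000232). FZD1 and FZD3 fell by less in the authors' deposited count table, with log2 fold changes of -0.18 (SE 0.04, adjusted p = 4.76e-06) and -0.28 (SE 0.04, adjusted p = 2.24e-13). Neither passed in the authors' deposited Cuffdiff table, where q was 0.0789 for FZD1 and 0.178 for FZD3. FZD6 had 848 and 779 normalized counts and did not pass (log2 fold change -0.12, SE 0.07, adjusted p = 0.139 in the authors' deposited table). FZD2, FZD8, FZD9 and FZD10 had means from 1.66 to 9.90 normalized counts and none passed. Summed over the 10 receptors the authors' deposited level was 43.0 FPKM in controls and 52.2 FPKM after cytokines, of which FZD5 alone went from 13.1 to 22.7 FPKM.

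Of the co-receptors LRP5 and LRP6, which pair with frizzleds in the canonical branch, 1 fell and 1 did not pass. LRP6 fell from 2694 to 2304 normalized counts by the authors' deposited count table (log2 fold change -0.23, SE 0.04, adjusted p = 2.59e-07 in DESeq), and its q was 0.359 in the deposited Cuffdiff table. LRP5 did not pass in the authors' deposited count table (log2 fold change -0.06, SE 0.03, adjusted p = 0.110), and was listed at 22.0 FPKM in each group.

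Of the 9 genes grouped as secreted antagonists, most of which keep ligands or co-receptors from engaging, 3 were tested and 1, DKK3, fell. In the authors' deposited count table DKK1, DKK2, DKKL1, SFRP2, SFRP4 and SFRP5 had reads but too few to be tested, and DKK4 had a mean of 1.62 normalized counts. DKK3, a DKK family protein not regarded as a typical LRP antagonist, had the highest level in the group and fell from 42.7 to 36.0 FPKM in the authors' deposited FPKM table (q = 0.000447). Its counts fell from 4642 to 3813 in the authors' deposited count table (log2 fold change -0.28, SE 0.03, adjusted p = 6.66e-18 in DESeq). SFRP1, which binds WNT proteins outside the cell, had 6.73 and 6.58 FPKM and did not pass in the authors' deposited count table (log2 fold change -0.17, SE 0.11, adjusted p = 0.252 in DESeq).

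**Figure D3:**
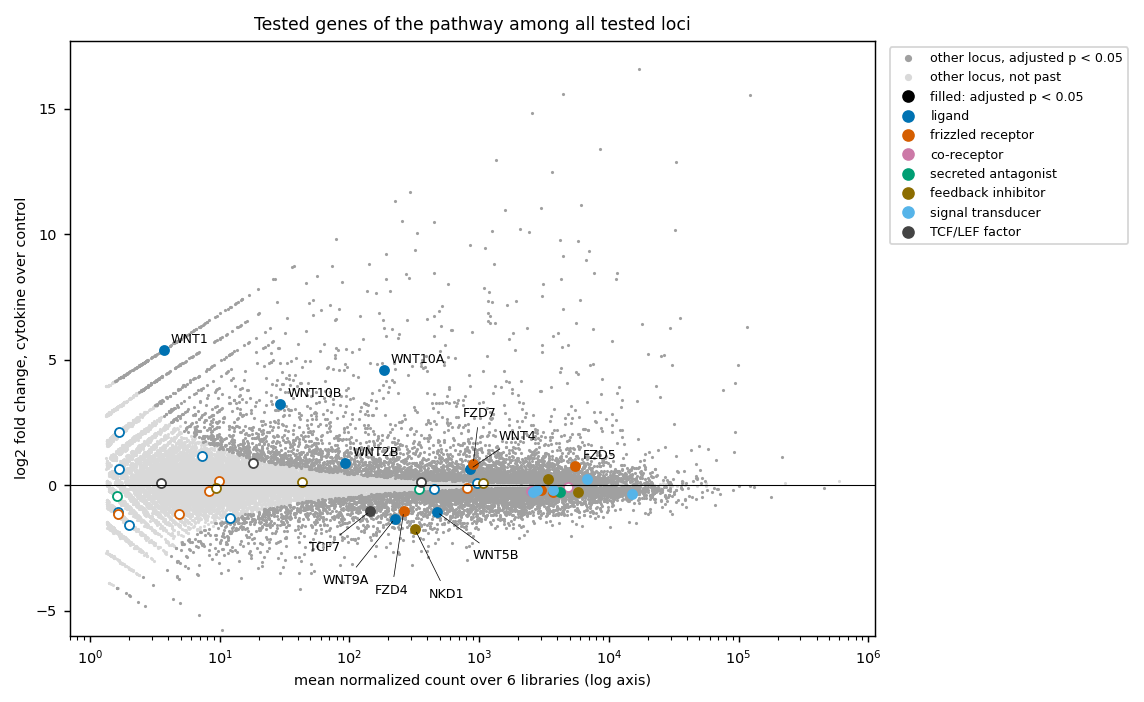
Log2 fold change (y axis) against mean normalized count over the 6 libraries (x axis, log scale) for all 30206 tested loci in grey and the 45 tested WNT pathway genes in colour by role, filled where the adjusted p was under 0.05. WNT10A and WNT10B stand away from the grey cloud's centre, and the abundant members lie close to 0; the value of WNT1 rests on a control level listed at 0 FPKM.

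Of the 6 feedback inhibitors, 1 was higher, 2 lower and 3 not past in the deposited count table, where 37.7% of all tested loci passed. NKD1, which binds dishevelled proteins and is induced by the canonical branch in many tissues, had the lowest log2 fold change of the 23 genes that passed. Its locus went from 492 to 147 normalized counts by the authors' deposited table, 3.35-fold lower (log2 fold change -1.75, SE 0.12, adjusted p = 1.94e-50 in DESeq; Cuffdiff q = 0.000232). The NKD1 gene is at chr16:50548396-50649249 on the plus strand, and its assembled locus also holds RP11-401P9.4. The transcripts of NKD1 itself summed to 1.504 FPKM in controls and 0.471 FPKM after cytokines in the authors' deposited isoform table.

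AXIN2, the most used reporter of canonical signalling, did not pass in the authors' deposited count table (1049 and 1109.6 normalized counts, log2 fold change 0.08, SE 0.06, adjusted p = 0.310 in DESeq). It passed once every fold change was re-centred on the median of loci with at least 1000 normalized counts, which adds 0.056 (log2 fold change 0.14, adjusted p = 0.0469 from the authors' deposited SE). Its locus is shared with CEP112 and CTD-2535L24.2, and its own transcripts summed to 2.71 and 2.75 FPKM in the authors' deposited isoform table. RNF43 and ZNRF3, membrane ubiquitin ligases that remove frizzled receptors, moved in opposite directions: in the authors' deposited table their loci had log2 fold changes of 0.25 (SE 0.03, adjusted p = 8.49e-12) and -0.27 (SE 0.03, adjusted p = 5.38e-22). Neither passed in the authors' deposited Cuffdiff table (q = 0.325 and 0.263). RNF43 shares its locus with SUPT4H1, and ZNRF3 is 1 of 9 symbols in a locus with CCDC117 and KREMEN1, so these values belong to all genes of the locus. The own transcripts of RNF43 summed to 8.35 and 12.8 FPKM and those of ZNRF3 to 4.93 and 2.48 FPKM in the authors' deposited isoform table. NKD2, with a mean of 9.43 normalized counts, and APCDD1, with 43.5, did not pass.

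All 5 signal transducers passed in the deposited count table, 1 higher and 4 lower, each by less than 1.5-fold. CTNNB1, which encodes β-catenin, had the highest level of the 55 genes in the authors' deposited FPKM table, 118 FPKM in controls and 92.7 FPKM after cytokines (q = 0.000232). Its counts went from 16973 to 13160.3 in the authors' deposited count table, 1.29-fold lower (log2 fold change -0.37, SE 0.02, adjusted p = 8.40e-62 in DESeq). The dishevelled genes, whose proteins relay the signal from frizzled receptors, split in the authors' deposited count table. DVL3 rose (log2 fold change 0.24, SE 0.03, adjusted p = 3.30e-17), while DVL1 (-0.18, SE 0.04, adjusted p = 9.18e-06) and DVL2 (-0.27, SE 0.04, adjusted p = 6.51e-12) fell, all in the authors' deposited DESeq test. In the authors' deposited Cuffdiff table none of the DVL genes passed (q = 0.303, 0.260 and 0.656 in the same order). The locus of AXIN1, the scaffold of the destruction complex, fell in the authors' deposited count table (log2 fold change -0.18, SE 0.03, adjusted p = 3.81e-07), but it also holds NPRL3, and the own transcripts of AXIN1 summed to 10.4 and 10.6 FPKM.

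Small changes of this kind were common among abundant loci. Of the 14 WNT pathway genes with a mean of at least 1000 normalized counts, 12 passed in the authors' deposited count table, 3 higher and 9 lower, while 78.2% of all such loci passed (32.9% higher, 45.3% lower). The 9 that fell had log2 fold changes between -0.37 and -0.18, and 3 of the 12 also passed in the authors' deposited Cuffdiff table. Of the 8 called genes with a log2 fold change of at least 1 in size, 6 passed in both tables.

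Of the TCF/LEF factors, which bring β-catenin to DNA, 1 of 4 passed in the deposited count table. TCF7 fell from 195 to 95.4 normalized counts by the authors' deposited count table (log2 fold change -1.03, SE 0.16, adjusted p = 2.84e-10 in DESeq), but did not pass in their deposited FPKM table (1.62 and 0.940 FPKM, q = 0.324). TCF7L2, the family member with the highest level, had 3.16 and 3.27 FPKM and did not pass (log2 fold change 0.12, SE 0.10, adjusted p = 0.423 in the authors' deposited count table). TCF7L1 had 12.7 and 23.3 normalized counts by the authors' deposited table (log2 fold change 0.88, SE 0.46, adjusted p = 0.133 in DESeq), and LEF1 had a mean of 3.55 normalized counts.

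The authors' deposited isoform table lists 297 named reference transcripts of these genes and tested 91 of them. At q under 0.05 in that Cuffdiff test 6 rose and 6 fell, 13.2% of those tested, against 9.87% of all 95649 tested transcripts (5.17% higher, 4.7% lower). These counts leave out 101 assembled transcripts of the same loci without a reference name, of which 47 were tested, 3 rose and 1 fell. These 12 transcripts came from 11 genes, and 11 of the 12 had the direction of a gene called in the count table. For WNT10A, ENST00000258411 went from 0.119 to 3.07 FPKM in the authors' deposited isoform table and made up 85.3% of the locus in controls and 92.3% after cytokines. For WNT10B, ENST00000301061 went from 0.0502 to 0.467 FPKM in the authors' deposited isoform table (q = 0.000833, the smallest in it).

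The exception was WNT5A, on the minus strand at chr3:55465715-55490539, whose locus as a whole did not pass. Its annotated transcript ENST00000264634, which starts at base 55487306 in GENCODE 44, went from 0.198 to 0.659 FPKM in the authors' deposited isoform table (log2 fold change 1.73, q = 0.000833 in Cuffdiff), and from 3.85% to 12.1% of the locus. An assembled transcript of the same locus without a reference name, the one drawn as assembled 4, fell from 1.64 to 0.752 FPKM (log2 fold change -1.13, q = 0.000833), from 32.0% to 13.8% of the locus in the authors' deposited table. Another, assembled 2, rose from 1.57 to 2.13 FPKM in the authors' deposited isoform table (log2 fold change 0.44, q = 0.0272). The annotated transcript ENST00000497027, which starts at base 55481393, had 0.751 and 0.814 FPKM in the authors' deposited table and did not pass (q = 0.971). Transcripts of this locus thus passed in both directions while the locus had a log2 fold change of 0.07 in the authors' deposited count table.

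For CTNNB1, ENST00000405570 fell from 27.2 to 15.8 FPKM in the authors' deposited isoform table (log2 fold change -0.78, q = 0.000833) and from 23.1% to 17.0% of the locus. ENST00000349496 fell from 40.6 to 32.2 FPKM (log2 fold change -0.34, q = 0.00808 in the authors' deposited Cuffdiff test), and ENST00000396185, at 36.4 and 33.5 FPKM, did not pass (q = 0.647). A difference in fold change between transcripts of a gene was not tested. For WNT4 the leading transcript was also an assembled one, at 7.55 and 11.5 FPKM in the authors' deposited isoform table, 59.1% and 59.2% of the locus. In FZD5, ENST00000295417 made up 79.8% and 78.9% of the locus and rose from 10.4 to 17.9 FPKM in the authors' deposited isoform table.

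**Figure D4:**
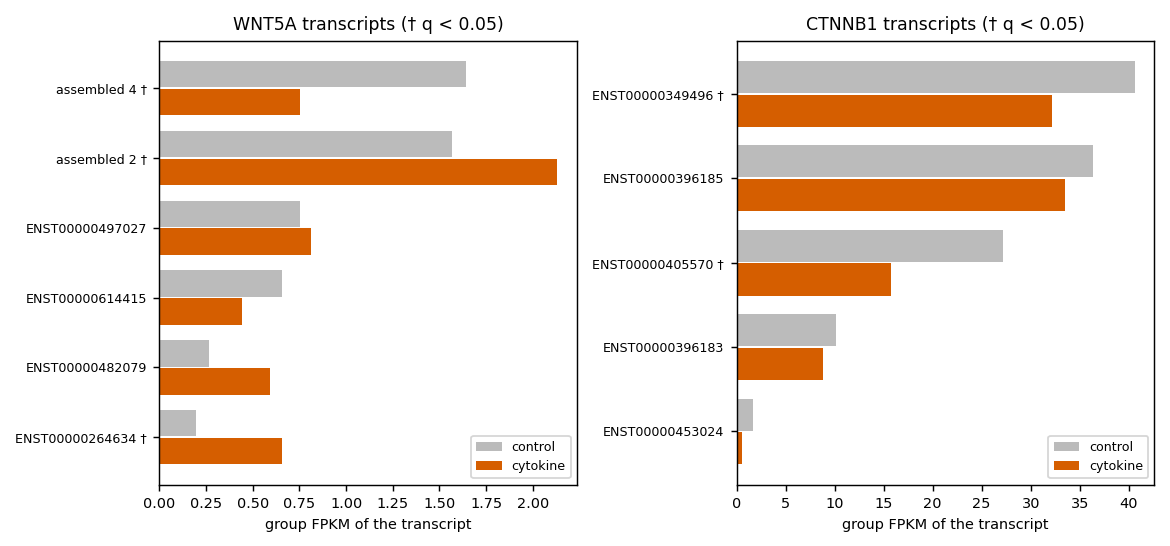
Group FPKM of single transcripts (x axis) of WNT5A, left, and CTNNB1, right, in control (grey) and cytokine cells (orange) from the deposited isoform table, with a dagger where q was under 0.05; transcripts low in both groups are not drawn. In WNT5A, ENST00000264634 rises from 0.198 to 0.659 FPKM while assembled 4 falls from 1.64 to 0.752 FPKM.

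A list of 80 other genes of the pathway, from secretion to target genes, was set beside these 55. In the authors' deposited count table, of the 80 genes 74 were tested, 21 rose, 27 fell and 26 did not pass, a share of 64.9%. Since 64 of the 80 had a mean of at least 50 normalized counts and 44 of those 64 passed, that share is read against the 67.6% of all loci that abundant. The median log2 fold change of the 74 was -0.03, and 19 of the 80 genes share their locus with another gene, KREMEN1 with ZNRF3 among them.

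The 3 loci grouped under secretion fell in the deposited count table: WLS, PORCN and also NOTUM, which does not itself export ligands. With a mean of at least 50 normalized counts, 67.6% of all loci passed there, 37.7% lower. NOTUM, a secreted enzyme that removes the lipid from WNT proteins and is a target of the canonical branch in several tissues, went from 328 to 58.5 normalized counts by the authors' deposited table (log2 fold change -2.49, SE 0.17, adjusted p = 4.45e-47 in DESeq). WLS, which carries ligands to the cell surface, fell from 2923 to 1999.6 normalized counts by the authors' deposited table (log2 fold change -0.55, SE 0.04, adjusted p = 7.23e-42). The locus of PORCN, which attaches the lipid, fell by less in the authors' deposited table (log2 fold change -0.16, SE 0.03, adjusted p = 5.43e-06). That locus also holds EBP, so its fall cannot be assigned to PORCN. Of the R-spondins, ligands that spare frizzled receptors from RNF43 and ZNRF3, RSPO4 alone was tested and did not pass. Of their receptors, LGR4 had 2829.7 and 2979 normalized counts by the authors' deposited table (log2 fold change 0.07, SE 0.04, adjusted p = 0.117 in DESeq, and 0.13 with adjusted p = 0.00196 after re-centring), and LGR5 fell from 31.7 to 12.1 (log2 fold change -1.39, SE 0.45, adjusted p = 0.00571).

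Among 8 other receptors and co-receptors 3 rose and 4 fell in the deposited count table. With a mean of at least 50 normalized counts 6 of 7 passed, against 67.6% of all such loci. LRP4, a relative of LRP5 and LRP6 that binds sclerostin, rose (log2 fold change 0.95, SE 0.07, adjusted p = 1.73e-39 in the authors' deposited table), as did TPBG (0.77, SE 0.15, adjusted p = 9.77e-07). ROR1, a receptor for WNT5A, fell from 2200.2 to 1508 normalized counts by the authors' deposited table (log2 fold change -0.54, SE 0.05, adjusted p = 3.67e-30). Of 6 extracellular inhibitors tested, the loci of 2 rose and those of 2 fell. All 4 with a mean of at least 50 normalized counts passed, against 67.6% of all such loci. SOSTDC1 rose (log2 fold change 0.93, SE 0.22, adjusted p = 8.66e-05 in the authors' deposited table) and alone of these also passed in Cuffdiff. The rise at CER1, in a locus with FREM1, and the fall at KREMEN1, in the locus of ZNRF3, cannot be assigned to these genes.

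The destruction complex and its kinases had 5 of 16 genes higher and 3 lower in the deposited count table, none by 2-fold there. All 16 had a mean of at least 50 normalized counts, and 67.6% of all such loci passed. GSK3B (log2 fold change -0.12, SE 0.03, adjusted p = 5.59e-05), GSK3A (0.08, SE 0.03, adjusted p = 0.0290) and CSNK1A1 (0.15, SE 0.02, adjusted p = 3.06e-11), the kinases that mark β-catenin for decay, passed with small values in the authors' deposited count table. In the deposited Cuffdiff table CSNK1A1 passed (q = 0.0454), but GSK3B (q = 0.205) and GSK3A (q = 0.288) did not. GSK3A shares its locus with ERF. The locus of APC, shared with SRP19, did not pass (log2 fold change 0.03, SE 0.03, adjusted p = 0.436 in the authors' deposited table, and 0.09 with adjusted p = 0.00616 after re-centring), and AMER1 rose (0.60, SE 0.09, adjusted p = 1.43e-11). Of 15 nuclear cofactors, all of that abundance too, 2 rose and 6 fell. TLE3, a co-repressor of TCF/LEF factors, fell from 955 to 450.1 normalized counts by the authors' deposited table (log2 fold change -1.09, SE 0.08, adjusted p = 1.32e-44 in DESeq). The co-activator BCL9 (-0.55, SE 0.04, adjusted p = 3.06e-48) and the β-catenin inhibitor CTNNBIP1 (-0.52, SE 0.04, adjusted p = 4.78e-39) fell in the authors' deposited table too. In the planar polarity and non-canonical list 4 of 14 rose and 6 fell. With a mean of at least 50 normalized counts 9 of 12 passed, against the same 67.6%. CELSR2 had a log2 fold change of -0.72 in the authors' deposited table (SE 0.04, adjusted p = 3.61e-85) and ANKRD6 1 of 0.98 (SE 0.09, adjusted p = 1.21e-26).

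Genes often read as targets of the pathway moved both ways, 5 higher and 2 lower of 8 tested in the deposited count table. Most of them also answer to other signals. With a mean of at least 50 normalized counts 6 of 6 passed, against 67.6% of all such loci. TCF4, counted among the 5 higher, had a log2 fold change of 0.19 there and -0.01 in the deposited Cuffdiff table (q = 0.949). CD44, a cell surface glycoprotein, rose from 4713 to 11854 normalized counts by the authors' deposited table (log2 fold change 1.33, SE 0.03), and BAMBI, a decoy receptor of the TGF-β family, from 564 to 1089 (0.95, SE 0.07, adjusted p = 9.31e-45). CCND1, cyclin D1, was listed at 0.00931 FPKM in controls and 2.86 FPKM after cytokines in the authors' deposited table (q = 0.000447), and the size of its fold is uncertain because the control mean was 0.637 normalized counts. TNFRSF19 fell from 2495 to 1241 normalized counts by the authors' deposited table (log2 fold change -1.01, SE 0.05, adjusted p = 1.43e-106). The fall of the ASCL2 locus, counted among the 2 lower, cannot be assigned, as it holds 7 symbols, INS among them.

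**Figure D5:**
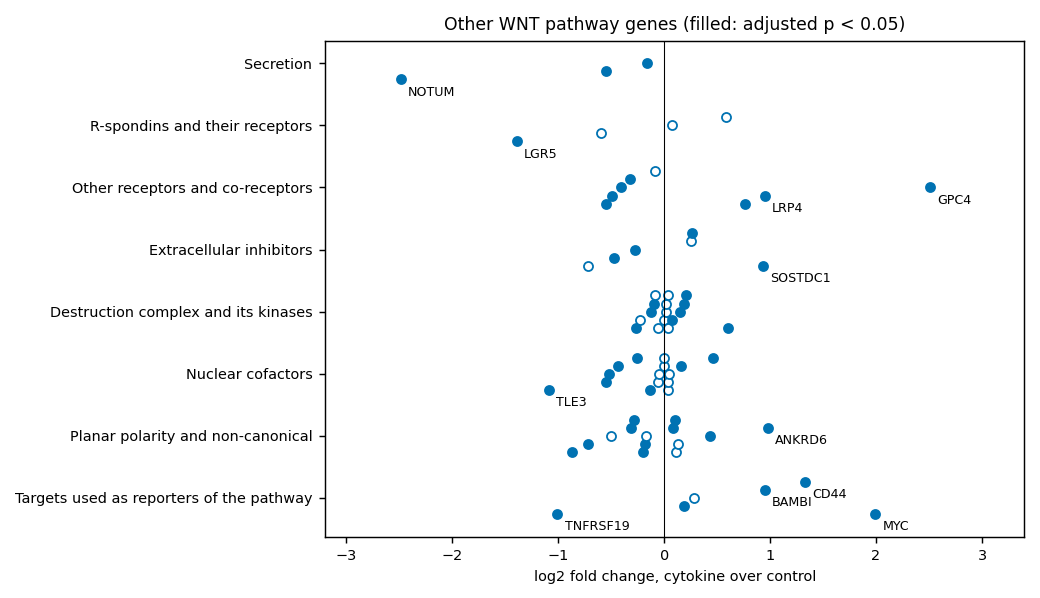
Log2 fold change, cytokine over control (x axis), of the other tested WNT pathway genes by role (y axis; small vertical offsets only separate points), filled where the adjusted p in the deposited count table was under 0.05. CCND1, with almost no control counts, and ASCL2, in the locus of INS, are not drawn; NOTUM at -2.49 lies farthest to the left.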

How the data were processed

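Per the labels' protocols, 3 control and 3 cytokine samples gave strand-aware libraries of poly(A) RNA. Per the submitters' processing notes, the build was hg38 and the tools were STAR 2.5.2b, DESeq, Cuffdiff 2.2.1, StringTie, bcl2fastq and FastQC 0.10.1, with no roles stated. Not given in the sources used here are the annotation, the strand setting and how reads were counted. Per the file headers, the authors' count tables give a signal, the size-factor normalized count averaged over 6 libraries. Per the file headers, the deposited log2 values are fold changes, with an SE in the count tables. The score deposited with the counts is the log2 fold change over its SE, within 9.66e-13, and in the FPKM tables it is Cuffdiff's test statistic. The p-values, adjusted p-values and q-values are the authors' as deposited, and so are the FPKM group values, per the file headers.

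The files used hold no value per library, so no count model was refitted and the authors' DESeq adjusted p at 0.05 over all 30206 tested loci was used. Group means were derived from the deposited overall mean and the fold change, and recomputing the adjustment gave the deposited adjusted p within 1.53e-15. Loci are bundles of assembled transcripts: 2890 held more than 1 symbol and 5827 none, the latter with 1.34% of the counts. The smallest tested mean was 1.34 normalized counts. The scripts were tested on simulated data. Members and lists were chosen with earlier results of these data known. Named were members past the test or with a mean of at least 50 normalized counts, and other pathway genes past the test with that mean and a log2 fold change of at least 0.5 in size, plus 7 core genes; genes named outside this rule (PORCN and RSPO4 among them) and low-count members are given as descriptions chosen after their values were seen. Starts came from GENCODE 44, which matched 287 of 297 transcripts, and promoter sequences from RefSeq; the result of a further motif searched is not reported here. Alternatives were the Cuffdiff table, a threshold of 0.01, no filter or one at 10 counts, re-centring on loci of at least 1000 counts, single-symbol loci and a pseudocount of 0.1 FPKM. The scripts ran in Python 3.11.15 with scipy 1.17.1, numpy 2.4.6, matplotlib 3.10.9 and pandas 2.3.3.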

Additional observations from a re-analysis of the deposited data

How the results depend on the processing

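No paired analysis was possible because the tables hold no values per library; leaving out each replicate in turn and a replicate block were not run for the same reason. By the deposited Cuffdiff test, 5 WNT pathway genes were higher and 6 lower, against 9 and 14 in the count table. Of the other pathway genes 15 were higher against 21 and 17 lower against 27. Cuffdiff tested fewer genes. Past the Cuffdiff test only were SP5, APC2 (q = 0.0245) and the locus CSNK1G1 shares with KIAA0101 (62.0 and 28.5 FPKM, q = 0.000232). Among the 30 named genes LRP5 was the one whose sign turned, with a log2 value of 0.0014 in the Cuffdiff table and 0.0014 from FPKM with the pseudocount, and it passed no test. Over all tested members 4 signs differed between the deposited tables (also APCDD1, WNT6 and NKD2, past no test), and over the other pathway genes 12, of which TCF4 was called (0.19 in the count table, -0.01 in the Cuffdiff table). Of 30 named genes, 11 lost their call in the Cuffdiff table and 17 kept both their sign and their side of the threshold there. LRP5, whose sign turned, also kept its side, and WNT1 was not tested by Cuffdiff. With a threshold of 0.01, no filter, a filter of 10 normalized counts, re-centred fold changes or single-symbol loci, between 8 and 10 of the genes were higher and between 11 and 15 lower. Re-centring moved every fold change by 0.056 and brought AXIN2 past the threshold (log2 fold change 0.14, adjusted p = 0.0469 from the authors' deposited SE). For the other pathway genes it gave 27 higher and 25 lower, against 21 and 27: 6 gained a call, among them LGR4 (adjusted p = 0.00196) and APC (0.00616) from the authors' deposited SE, and 2 lost it. The cause of these differences was not tested. Isoform counts were 6 higher and 5 lower at q under 0.01, and 4 and 5 among transcripts of at least 1 FPKM. Depth limits the 27 genes under 50 normalized counts, of which 10 had no adjusted p.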

Other observations

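The authors' deposited count and FPKM tables disagreed for SP5, a target gene of the canonical branch. The count table gave it a mean of 8.42 normalized counts and a log2 fold change of 0.29 (SE 0.64, adjusted p = 0.812 in DESeq), while the authors' deposited FPKM table listed 0.641 FPKM in controls and 2.82 FPKM after cytokines (q = 0.000232). It had 4.87 normalized counts per FPKM, against 106 for WNT10A and 143 for CTNNB1. KCNJ11, a subunit of the beta cell potassium channel, had 118 normalized counts and 28.4 and 18.3 FPKM in the authors' deposited tables. The cause was not tested.

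GPC4, a cell surface proteoglycan that can bind WNT ligands, went from 8.03 to 45.6 normalized counts by the authors' deposited table (log2 fold change 2.51, SE 0.43, adjusted p = 2.56e-08 in DESeq), and its family member GPC3 from 1634 to 1161 (log2 fold change -0.49, SE 0.05, adjusted p = 8.68e-21). MYC went from 12.6 to 50.2 normalized counts by the authors' deposited table (log2 fold change 1.99, SE 0.36, adjusted p = 2.24e-07). These 3 genes were chosen after their values had been seen.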
